A study of Mus musculus with 12 samples.

Results

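Genes that restrain inflammatory signalling were followed through the response of mouse B cells to lipopolysaccharide (LPS), a bacterial cell wall component that activates B cells through a Toll-like receptor. The genes were chosen by name: Tnfaip3, Tnip1 and Cyld, which act on ubiquitin chains, Traf1 and Traf3, adaptors of the tumour necrosis factor (TNF) receptor family, and Zc3h12a, Zfp36, Zfp36l1 and Zfp36l2, which destroy messenger RNAs. All 9 members were found by Entrez identifier among the 27179 genes of the count table, and all 9 were among the 12750 genes with enough counts to be tested. RNA-Seq was available for 12 libraries, 2 biological replicates at each of 6 stages. All cells came from the spleens of young adult male C57BL/6 mice. Naive B cells were sorted, without culture, by surface markers that included absence of TCRβ, presence of B220 and IgM and a high level of IgD. For the other stages, B cells isolated by negative selection were cultured with LPS at 25 µg/ml. For the 3, 10 and 33 h stages they were first labelled with the division dye CellTrace Violet, and the sort took CD69+ B cells that still carried the most dye, which were activated but undivided. Cells cultured to day 4 were separated into CD22+CD138- B cells, called expanded here and activated B cells in the labels, and CD22-CD138+ plasmablasts, the antibody-secreting cells. Each transition from a stage to the next, and the whole path from naive cells to plasmablasts, was compared to ask when the transcript of each restraining gene changed.

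Signals from Toll-like receptors, CD40 and TNF receptors travel along ubiquitin chains to the kinases that release NF-κB, and negative regulators of this pathway cut or edit those chains. Tnfaip3 encodes A20, a ubiquitin-editing enzyme, Tnip1 encodes ABIN-1, which binds A20 and linear ubiquitin, and Cyld encodes a deubiquitinase of linear and lysine-63 chains. TRAF3 holds the kinase NIK at a low level and so restrains the non-canonical NF-κB pathway in resting B cells, and TRAF1 is an adaptor that pairs with TRAF2. Downstream, Zc3h12a encodes Regnase-1, an endonuclease that cleaves stem-loops in inflammatory messenger RNAs, and the ZFP36 proteins bind AU-rich elements in 3′ untranslated regions (UTRs) and recruit the CCR4-NOT deadenylase.

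Total counts ran from 23026619 to 60585587 per library, and the tested genes held 84.0% to 90.5% of them. B cell markers were present in all libraries, and the 5 plasmablast markers (Sdc1, Prdm1, Xbp1, Irf4 and Jchain) summed to 10800 and 10700 RPKM (read counts per kilobase of exon, scaled to library size) in plasmablasts against at most 1070 elsewhere. Jchain made up most of the plasmablast sum (8220 and 7780). Sdc1, Prdm1, Xbp1 and Jchain were each highest in plasmablasts, but Irf4 was highest at 3 h (709 and 519, against 242 and 290 in plasmablasts). The naive libraries also held transcripts of other blood cells. The 12 myeloid markers summed to 415 and 169 RPKM in naive replicates 1 and 2 and to between 3.88 and 20.3 in the other libraries, where 8 or 9 of the 12 had at most 3 counts in both replicates of a stage. The 4 erythroid markers found in the table summed to 376 and 288 RPKM in naive cells and to at most 3.01 elsewhere. The 5 NK cell markers summed to 13.8 and 11.8 RPKM in naive cells and at most 3.06 elsewhere, and the 9 T cell markers to 31.8 and 35.1 against 10.2 to 29.1. The T cell sum was mostly Lck in naive cells (29.4 and 32.3) and mostly Cd28 in plasmablasts (20.3 and 23.1), so it is no measure of T cells. Each T cell marker other than Lck was at most 0.536 RPKM in naive cells. Both naive libraries held these transcripts, and their part in the naive levels given here was not tested. The largest difference between the naive replicates in any of the 9 genes was 1.14-fold, in Zfp36l2. In these bulk samples, fewer cells of a type and less RNA per cell cannot be told apart.

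The 9 genes changed mostly in the first hours. Levels are given as RPKM, in the order replicate 1 and replicate 2, with libraries scaled by the trimmed mean of M values (TMM), and a change was called where edgeR's glmTreat found it beyond 1.5-fold at a Benjamini-Hochberg adjusted p under 0.05. From naive cells to 3 h, 5 members rose and 1 fell, 6 of 9 where 45.3% of all tested genes were called (21% up and 24.3% down). From 3 h to 10 h 6 fell and none rose, against 30.8% of all tested genes (17.4% up and 13.4% down). From 10 h to 33 h glmTreat called 0 members, where 14.5% of all tested genes were called (10.1% up and 4.45% down). At this step 0 members had an unadjusted p under 0.05 and DESeq2's Wald test against the same fold also called 0, while the quasi-likelihood F-test, which asks for a change of any size, called 1 (Zfp36l1) where it called 45.5% of all tested genes. From 33 h to expanded cells 1 fell, against 10.6% of all tested genes (6.94% up and 3.66% down). From expanded cells to plasmablasts 2 rose and 1 fell, against 26.1% (13.9% up and 12.2% down). Between the ends of the path, naive cells and plasmablasts, 2 were higher in plasmablasts and 2 lower, where 50% of all tested genes were called (26.6% up and 23.4% down). The median log2 fold change of the 9 members was 0.84 from naive to 3 h, where that of all tested genes was -0.03, and -1.03 from 3 h to 10 h, where that of all tested genes was 0.02. Both steps share the 3 h libraries. In all, 16 of the 45 member-by-transition tests were called, 7 up and 9 down. Traf1 was called at 4 of the 5 transitions, and Tnip1 and Cyld at none. The F-test was used to order the stages of each gene, and 21 of 45 neighbouring levels differed by it. It called a large share of all tested genes, 71% from naive to 3 h, 67.7% to 10 h, 71% to 33 h, 73.1% to expanded cells and 74.1% to plasmablasts. From 3 h it called 62.3% to 10 h, 70.5% to 33 h, 73.3% to expanded cells and 77.4% to plasmablasts, and from 10 h 61.7% to expanded cells and 72.2% to plasmablasts. From 33 h it called 39.6% to expanded cells and 67.4% to plasmablasts, and from expanded cells to plasmablasts 56.9%.

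**Figure D1:**
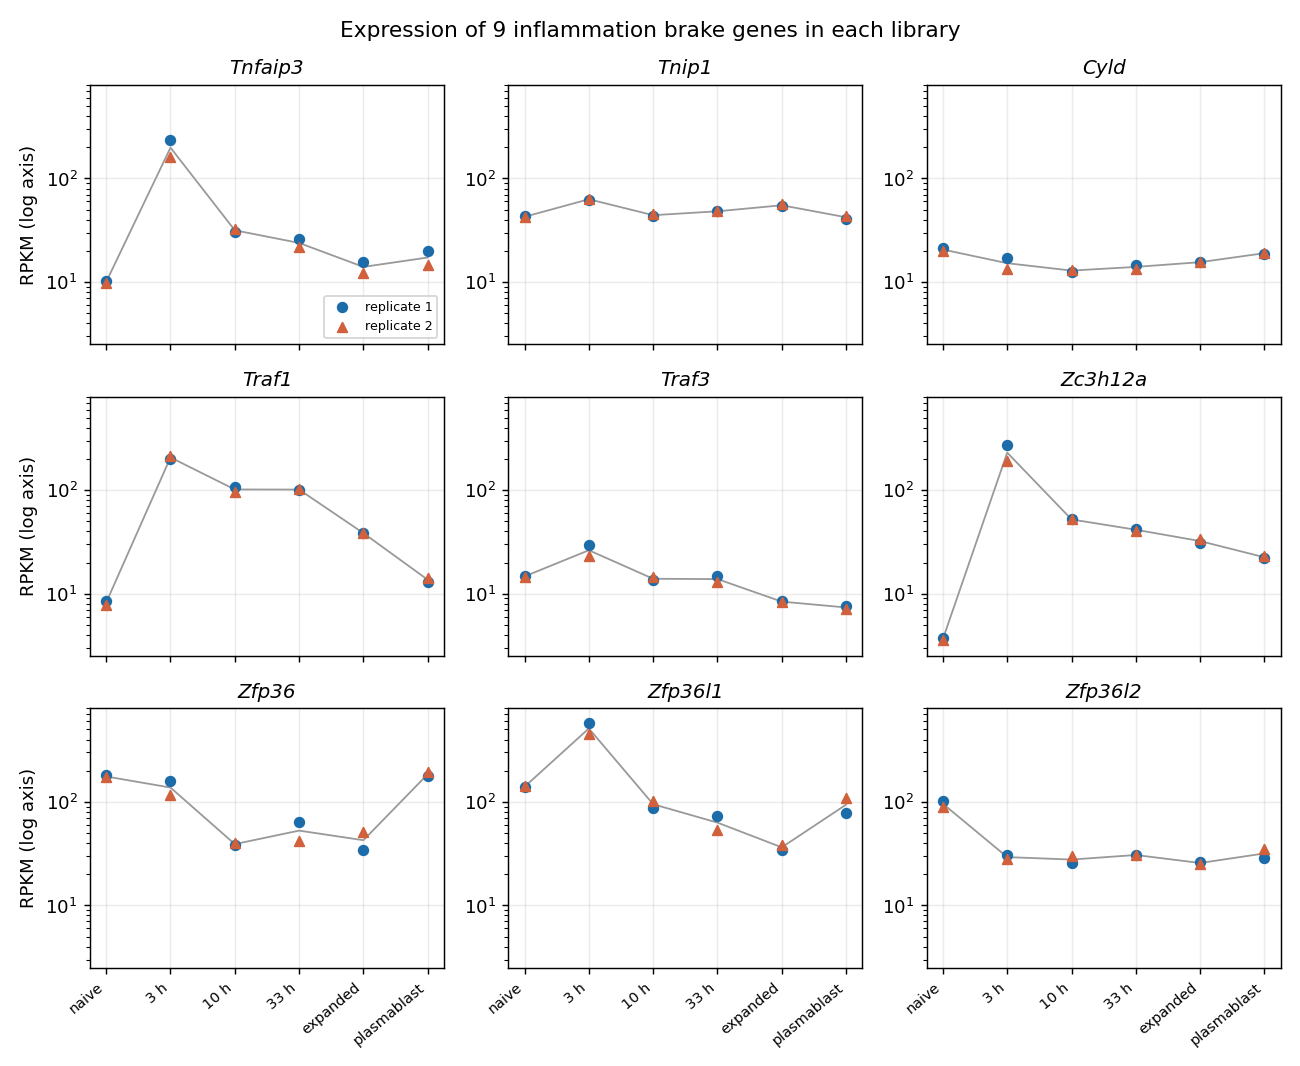
Levels of the 9 genes in each of the 12 libraries, as RPKM on a log axis. Points are libraries (circles, replicate 1, and triangles, replicate 2) and lines join the means of the 6 stages. Tnfaip3, Traf1, Traf3, Zc3h12a and Zfp36l1 peak at 3 h. Zfp36 is low from 10 h to expanded cells and returns in plasmablasts, and Zfp36l2 is high in naive cells alone. Tnip1 and Cyld stay within a ratio of 1.6 between stage means.

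**Figure D2:**
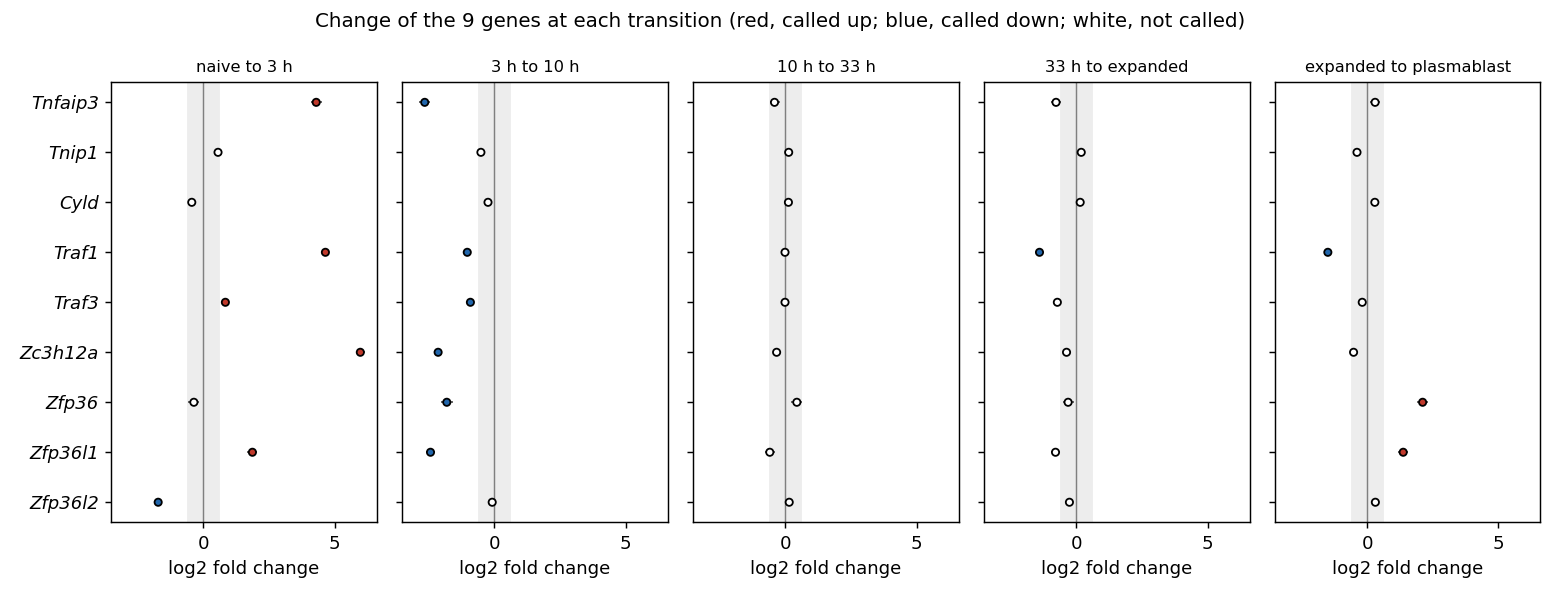
Log2 fold change of each of the 9 genes at the 5 transitions, with its SE as a bar (hidden where smaller than the point) and the range within 1.5-fold shaded. Filled points were called by glmTreat, red up and blue down: 6 at naive to 3 h, 6 at 3 h to 10 h, none at 10 h to 33 h, 1 at 33 h to expanded and 3 at expanded to plasmablast.

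Tnfaip3 (Entrez 21929; GRCm38 chr10:19000910-19015410, minus strand) rose early and for a short time. Its RPKM in replicates 1 and 2 were 10.3 and 9.75 (naive cells), 235 and 162 (3 h), 30.5 and 32.7 (10 h), 25.9 and 21.8 (33 h), 15.7 and 12.3 (expanded cells) and 19.9 and 14.6 (plasmablasts). Both 3 h libraries lay above every other library, and both naive libraries below. The rise to 3 h was 19.8-fold (log2 fold change 4.30, SE 0.21, adjusted p = 1.5e-08), and the fall to 10 h was 6.28-fold (log2 fold change -2.65, SE 0.20, adjusted p = 2e-06). At 33 h it was still 2.38-fold above naive cells (adjusted p = 0.0019). In order of level, 33 h exceeded plasmablasts and expanded cells exceeded naive cells by the F-test (adjusted p = 0.043 and 0.04), whereas 10 h and 33 h were not separated (log2 difference 0.41, 95% interval -0.05 to 0.86), nor were plasmablasts and expanded cells (0.30, -0.16 to 0.76). The replicates at 3 h differed 1.44-fold, the widest pair for this gene, and replicate 1 at 3 h was above replicate 2 in all members except Tnip1 and Traf1.

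The sequence just upstream of the Tnfaip3 start is shown because it holds more than 1 match to NF-κB sites and because Tnfaip3 rose 19.8-fold. The 137 bases before the start (GRCm38, chr10:19015411-19015547, minus strand, sequence from RefSeq) are given 5′ to 3′ with an AP-1 match and 2 NF-κB matches in capitals, the first 136, the second 125 and the last 12 bases upstream of the start. For comparison the other members with an NF-κB match are shown as 30 bases each, Tnip1 (chr11:54962978-54963007, minus strand), Cyld (chr8:88696863-88696892, plus strand) and Traf3 (chr12:111166340-111166369, plus strand), with the match in capitals. In Tnip1 the capitals merge 3 overlapping matches.
Tnfaip3: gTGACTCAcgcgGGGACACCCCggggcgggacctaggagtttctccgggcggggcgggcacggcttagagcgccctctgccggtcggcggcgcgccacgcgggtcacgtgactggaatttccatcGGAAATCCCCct
Tnip1: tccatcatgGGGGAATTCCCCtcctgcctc
Cyld: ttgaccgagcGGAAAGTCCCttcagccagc
Traf3: cgcgcgcccaggcggcccgcGGGGATTTCC
Tnfaip3 rose 19.8-fold to 3 h and Traf3 1.79-fold, Tnip1 was 1.48-fold higher without being called beyond 1.5-fold, and Cyld was 1.36-fold lower, also not called.

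Tnip1 (Entrez 57783; chr11:54910787-54962956) was held within a narrow range. Its RPKM were 43.1 and 42.2 (naive cells), 62.2 and 63.8 (3 h), 43.3 and 45.1 (10 h), 48.4 and 48 (33 h), 54.1 and 56.1 (expanded cells) and 41 and 43.4 (plasmablasts). The highest stage mean was 1.49 times the lowest. Of the 5 transitions 3 passed the F-test and none was beyond 1.5-fold by glmTreat. The level at 3 h was above naive cells (log2 fold change 0.56, SE 0.08, F-test adjusted p = 2.1e-05, glmTreat adjusted p = 0.54), that at 10 h was below 3 h (-0.51, SE 0.08, F-test adjusted p = 6.8e-05), and plasmablasts were below expanded cells (-0.39, SE 0.08, F-test adjusted p = 0.00078). Naive cells and plasmablasts were not separated (log2 fold change -0.02, 95% interval -0.20 to 0.17). In plasmablasts Tnip1 stood at 42.2 RPKM against 17.2 for Tnfaip3, where at 3 h it was 63.0 against 198.

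Cyld (Entrez 74256; chr8:88696878-88751946) followed a shallow curve in the other direction. The 12 libraries held 21.1 and 20.1 (naive cells), 16.9 and 13.5 (3 h), 12.6 and 13.2 (10 h), 14.5 and 13.5 (33 h), 15.5 and 15.6 (expanded cells) and 18.8 and 19.2 (plasmablasts) RPKM. The highest stage mean, in naive cells, was 1.60 times the lowest, at 10 h. The F-test separated 3 h from naive cells (log2 fold change -0.44, SE 0.10, adjusted p = 0.0016) and plasmablasts from expanded cells (0.29, SE 0.10, adjusted p = 0.026), and neither was beyond 1.5-fold by glmTreat (adjusted p = 0.96 and 1). Between plasmablasts and naive cells the log2 difference was -0.12 (95% interval -0.37 to 0.13). Over the 12 libraries log2(RPKM + 1) of Cyld and Traf1 had a Pearson's r of -0.839, the lowest of any pair of members, and that of Tnfaip3 and Zc3h12a 0.886. These are descriptions over libraries that share their stages.

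Traf1 (Entrez 22029; chr2:34941750-34961812) rose early and came down in steps. Its RPKM were 8.6 and 7.85 (naive cells), 202 and 212 (3 h), 107 and 96.2 (10 h), 99.7 and 103 (33 h), 38.5 and 38.5 (expanded cells) and 13 and 14.3 (plasmablasts). The 3 h libraries were above all others and the 10 h and 33 h libraries overlapped. The rise to 3 h was 25.2-fold (log2 fold change 4.65, SE 0.10, adjusted p = 1e-11). Falls followed to 10 h (2.04-fold, log2 fold change -1.03, SE 0.09, adjusted p = 0.00016), from 33 h to expanded cells (2.63-fold, -1.40, SE 0.09, adjusted p = 6.3e-06) and from expanded cells to plasmablasts (2.82-fold, -1.5, SE 0.09, adjusted p = 6.9e-07). Between 10 h and 33 h the log2 difference was -0.01 (95% interval -0.22 to 0.21). The plasmablast level was 1.66-fold above the naive level (log2 fold change 0.73, SE 0.09, adjusted p = 0.046), a call at the edge of the threshold that was lost in 9 of 14 alternatives, among them leaving out naive replicate 2 (0.67, adjusted p = 0.18) or plasmablast replicate 2 (0.66, adjusted p = 0.2). The fall from 3 h to 10 h was lost with libraries scaled by their total alone (-0.70, adjusted p = 0.095).

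Traf3 (Entrez 22031; chr12:111166321-111267155) rose briefly and was lowest on day 4. The libraries held 15 and 14.4 (naive cells), 29.4 and 23.2 (3 h), 13.5 and 14.4 (10 h), 14.7 and 13 (33 h), 8.52 and 8.27 (expanded cells) and 7.55 and 7.19 (plasmablasts) RPKM. The 3 h libraries were the highest and the 4 libraries of day 4 the lowest. The rise to 3 h was 1.79-fold (log2 fold change 0.84, SE 0.11, adjusted p = 0.012) and the fall to 10 h 1.88-fold (-0.91, SE 0.11, adjusted p = 0.0055). Both calls were lost without replicate 1 at 3 h, where the rise was 0.66 (adjusted p = 0.16) and the fall -0.73 (adjusted p = 0.079), and with libraries scaled by their total alone (0.62, adjusted p = 0.27, and -0.58, adjusted p = 0.52). The rise was also lost without naive replicate 2 (0.81, adjusted p = 0.05), in a fit on only the 4 libraries compared (0.81, adjusted p = 0.05) and with DESeq2's Wald test (0.83, adjusted p = 0.12). The later fall, from 33 h to expanded cells, was 1.65-fold and passed the F-test (adjusted p = 0.00027) but not the 1.5-fold test (adjusted p = 0.23). Plasmablasts held 1.99-fold less Traf3 than naive cells (log2 fold change -0.99, SE 0.11, adjusted p = 0.00084). At 3 h Traf1 stood at 207 RPKM against 26.3 for Traf3, and in naive cells at 8.23 against 14.7, so the order of these TRAF transcripts was opposite in the 2 stages.

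Zc3h12a (Entrez 230738; chr4:125118414-125127881) had the largest rise of the 9 genes. Its RPKM were 3.78 and 3.54 (naive cells), 271 and 190 (3 h), 52.2 and 52.2 (10 h), 42.2 and 40.8 (33 h), 31 and 33.5 (expanded cells) and 21.9 and 23.1 (plasmablasts). No stage overlapped another. The rise to 3 h was 62.9-fold (log2 fold change 5.98, SE 0.16, adjusted p = 9.3e-11) and the fall to 10 h 4.42-fold (-2.14, SE 0.13, adjusted p = 3.1e-07). In expanded cells Tnfaip3 was 1.39-fold above its naive level (adjusted p = 0.66), and Zc3h12a was 8.79-fold above its own (adjusted p = 3.9e-09) and, in plasmablasts, 6.14-fold above (log2 fold change 2.62, SE 0.15, adjusted p = 1.2e-08). Of its 5 steps down the order of levels, 4 passed the F-test, and the step from 10 h to 33 h missed it (log2 difference 0.33, 95% interval 0.01 to 0.64, adjusted p = 0.052). Among tested genes 36.9% had a lower naive mean RPKM than Zc3h12a, and 72.5% a lower plasmablast mean.

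The 3 ZFP36 paralogs took 3 different courses. Zfp36 (Entrez 22695; chr7:28376784-28379228), which encodes tristetraprolin, had RPKM of 180 and 172 (naive cells), 158 and 117 (3 h), 38.5 and 39.7 (10 h), 63.7 and 41.9 (33 h), 34.4 and 50.9 (expanded cells) and 176 and 194 (plasmablasts). The 6 libraries from 10 h to expanded cells were all below the other 6. No rise was seen at 3 h (log2 fold change -0.36, 95% interval -0.87 to 0.16, F-test adjusted p = 0.15), and the samples hold no earlier time. Zfp36 fell 3.52-fold from 3 h to 10 h (log2 fold change -1.81, SE 0.22, adjusted p = 0.00025) and rose 4.33-fold from expanded cells to plasmablasts (2.11, SE 0.22, adjusted p = 6.5e-05). Plasmablasts and naive cells were not separated (0.07, 95% interval -0.45 to 0.59). Replicates of Zfp36 differed 1.52-fold at 33 h and 1.48-fold in expanded cells, the widest among the 9 genes.

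Zfp36l1 (Entrez 12192; chr12:80107760-80113013) peaked at 3 h. Its RPKM were 139 and 141 (naive cells), 572 and 451 (3 h), 86.8 and 103 (10 h), 73.1 and 53 (33 h), 34.6 and 38.2 (expanded cells) and 78 and 110 (plasmablasts). At 3 h its mean of 511 RPKM was the highest of any member at any stage. It rose 3.66-fold to 3 h (log2 fold change 1.87, SE 0.19, adjusted p = 2.1e-05), fell 5.40-fold to 10 h (-2.43, SE 0.19, adjusted p = 3.9e-06) and rose 2.58-fold from expanded cells to plasmablasts (1.37, SE 0.19, adjusted p = 0.0011). Between these, it was lower at 33 h than at 10 h (-0.59, SE 0.18, F-test adjusted p = 0.021) and lower in expanded cells than at 33 h (-0.79, SE 0.18, F-test adjusted p = 0.0053), neither beyond 1.5-fold by glmTreat (adjusted p = 0.77 and 0.27).

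Zfp36l2 (Entrez 12193; chr17:84183924-84187947) fell once and did not return. The libraries held 102 and 89.8 (naive cells), 30.6 and 28 (3 h), 25.6 and 29.9 (10 h), 30.4 and 31 (33 h), 26 and 25.4 (expanded cells) and 28.8 and 34.8 (plasmablasts) RPKM. Both naive libraries were above all the others. The fall to 3 h was 3.29-fold (log2 fold change -1.72, SE 0.11, adjusted p = 3.1e-07), and plasmablasts were 3.02-fold below naive cells (-1.59, SE 0.11, adjusted p = 5.3e-07). None of the 4 later neighbouring levels in its order differed by the F-test (adjusted p from 0.4 to 0.69), though expanded cells and plasmablasts, at the ends of that range, did (0.31, SE 0.11, adjusted p = 0.029).

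Added together, the 3 paralogs came to 421 and 403 RPKM (naive cells), 760 and 596 (3 h), 151 and 172 (10 h), 167 and 126 (33 h), 95 and 115 (expanded cells) and 283 and 338 (plasmablasts). The sum was thus high at both ends and at 3 h, and low from 10 h to expanded cells. Its makeup differed between these high points. In naive cells Zfp36 held 42.7% of the sum, Zfp36l1 33.9% and Zfp36l2 23.3% (means of 2 libraries). At 3 h Zfp36l1 held 75.4%, with 75.2% and 75.6% in the libraries, Zfp36 20.2% and Zfp36l2 4.36%. In plasmablasts Zfp36 held 59.7%, with 62.2% and 57.3% in the libraries, Zfp36l1 30% and Zfp36l2 10.3%. Shares are a description of transcript levels per length and were not tested.

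**Figure D3:**
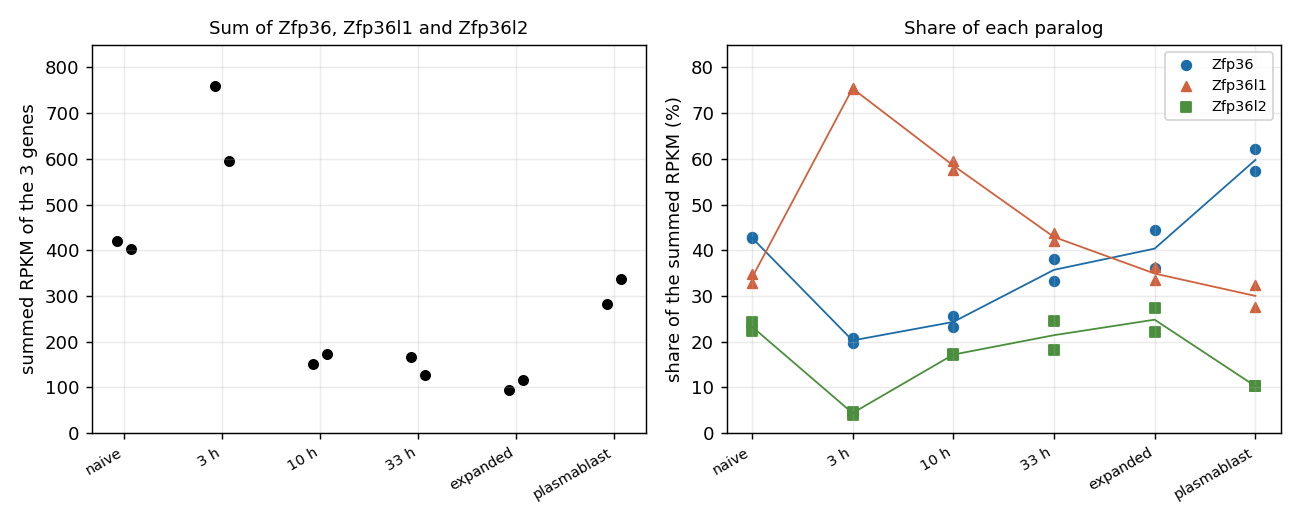
Left, the RPKM of Zfp36, Zfp36l1 and Zfp36l2 added together in each of the 12 libraries. Right, the share of that sum held by each paralog (points, libraries; lines, stage means); Zfp36l1 holds 75.4% at 3 h and Zfp36 59.7% in plasmablasts, while Zfp36l2 drops from 23.3% in naive cells to 4.36% at 3 h.

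The ZFP36 proteins bind AU-rich elements, and some of the members carry such letters in their own 3′ UTRs. The core TATTTAT was searched on the transcript strand of the longest annotated 3′ UTR of each gene, and 6 of the 9 members held at least 1 copy. Zfp36, Zfp36l1 and Zfp36l2 each held 3, Tnfaip3, Cyld and Traf3 each 2, and Tnip1, Traf1 and Zc3h12a none. UTR length differs between the genes (774 bases in Zfp36, 1835 in Zfp36l1 and 5093 in Traf3), so each was read beside genes with a 3′ UTR within 10% of its length. At least 1 copy was held by 19.3% of such genes for Zfp36, 39.1% for Zfp36l1, 38.5% for Zfp36l2 and 38.6% for Tnfaip3. The share was 66.9% for Cyld and 68.5% for Traf3. For the members without a copy it was 20.2% (Tnip1), 42.3% (Traf1) and 20.1% (Zc3h12a). As many copies as in Zfp36 were held by 1.43% of such genes, for Zfp36l1 by 4.51% and for Zfp36l2 by 4.67%. For Tnfaip3 the share was 14.3%, for Cyld 35.6% and for Traf3 36.9%. The longer form TTATTTATT contains the core and was held by 4 of the 9 members, the 3 paralogs and Tnfaip3, with 1 copy each. It is not particular to these genes: at least 1 copy was held by 4.13% of genes with a 3′ UTR of like length for Zfp36, 9.99% for Zfp36l1, 10.1% for Zfp36l2 and 10.1% for Tnfaip3. The site in each of the 3 ZFP36 paralogs is shown, as the family whose proteins bind such letters, with 10 bases on either side as annotated in GRCm38 (Zfp36 chr7:28376951-28376979, Zfp36l1 chr12:80108167-80108195, Zfp36l2 chr17:84184914-84184942, all on the minus strand). Capitals mark the 9 letters.
Zfp36: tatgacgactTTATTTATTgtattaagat
Zfp36l1: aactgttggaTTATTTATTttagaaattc
Zfp36l2: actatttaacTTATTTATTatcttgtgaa
A match is a run of letters and no measurement of binding. Of the 6 members with TATTTAT, 4 fell between 3 h and 10 h (Tnfaip3, Traf3, Zfp36 and Zfp36l1), and of the 3 without it 2 fell (Traf1 and Zc3h12a). Over all tested genes 13.4% fell at this step. Zfp36l2, which held 3 copies, had a log2 fold change of -0.08 (95% interval -0.35 to 0.19).

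Promoter windows of 300 bases (250 before to 50 after the RefSeq start) were found for 8 of the 9 members, and a few motifs of factors that LPS activates were searched in them on both strands. An NF-κB site was matched in 4 of the 8 and in 8.49% of 32544 windows of the same length from all genes. Tnfaip3 also has a second annotated start, 3447 bases downstream, whose window held no match, so 4 of 9 member windows matched. The windows of all genes include such alternative starts. The AP-1 motif (TGACTCA or TGAGTCA) was matched in Tnfaip3 alone (5.19% of all windows), a CArG box in Zfp36 alone (1.64%), the EGR motif GCGNGGGCG in Zfp36 and Traf3 (5.60%) and the STAT motif TTCNNNGAA in Zfp36 and Tnip1 (8.33%). No member window held the cAMP response element TGACGTCA, found in 1.80% of all windows. The windows of Traf1, Zc3h12a and Zfp36l1, which rose 25.2-, 62.9- and 3.66-fold to 3 h, held none of these letters. Zfp36 is shown because it alone held a CArG box and its transcript followed a course of its own. The stretches of 30 bases, on the minus strand, lie at chr7:28379314-28379343, chr7:28379267-28379296 and chr7:28379229-28379258, with the match in capitals, and another annotated Zfp36 transcript has an exon that covers them.
Zfp36 EGR: gagctacgccGCGGGGGCGcgtcccggaag
Zfp36 CArG: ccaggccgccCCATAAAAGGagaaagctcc
Zfp36 STAT: gccacagcctgacTTCTGCGAAccgacagt

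**Figure D4:**
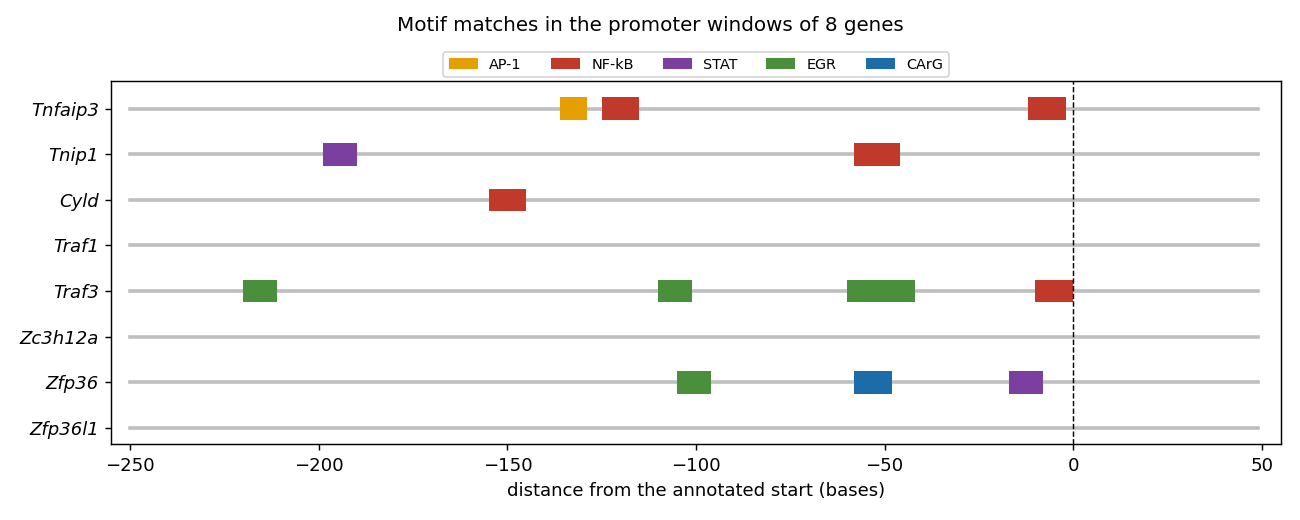
Matches to 5 motifs in the first promoter window of each of 8 members, by distance in bases from the annotated start (dashed line). Each grey bar is a window from 250 bases before to 50 after the start and coloured boxes are matches; Tnfaip3 has an AP-1 and 2 NF-κB matches, Zfp36 an EGR, a CArG and a STAT match, and Traf1, Zc3h12a and Zfp36l1 have none.

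Of 8 tested genes whose proteins work with A20 or CYLD, 1 rose and none fell from naive cells to 3 h, a step at which 21% of all tested genes rose and 24.3% fell. That gene was Rnf11, a ubiquitin ligase of the A20 complex, at 13.4 RPKM in naive cells and 43.9 at 3 h (log2 fold change 1.71, SE 0.09, adjusted p = 6.1e-08). Spata2, which links CYLD to the linear ubiquitin ligase, fell from 27.2 to 15.3 RPKM between 3 h and 10 h (-0.83, SE 0.11, adjusted p = 0.019). From expanded cells to plasmablasts 2 partners rose and 1 fell, where 13.9% of all tested genes rose and 12.2% fell. Tnip2, which encodes ABIN-2, rose from 4.92 to 10.8 RPKM (1.13, SE 0.11, adjusted p = 0.00024), Rnf11 rose again, and Tnip3, which encodes ABIN-3, fell from 1.85 to 0.167 RPKM (-3.48, SE 0.39, adjusted p = 2.5e-05). Among 10 tested genes of the linear ubiquitin ligase and the kinases it serves, 1 rose and 1 fell at 3 h. The kinase TAK1 (Map3k7) rose (0.86, SE 0.08, adjusted p = 0.0016) and Sharpin, a subunit of the ligase, fell from 51.1 to 22.2 RPKM (-1.20, SE 0.12, adjusted p = 6.7e-05). None of the 10 was called from 10 h to 33 h or from 33 h to expanded cells by glmTreat or by DESeq2, none had an unadjusted p under 0.05 there, and the F-test called 4 and 3. Over all tested genes glmTreat called 14.5% and 10.6% at these steps, and the F-test 45.5% and 39.6%. By plasmablasts 4 were below naive cells and none above, among them the kinase gene Ikbkb, at 42.0 and 13.7 RPKM (-1.62, SE 0.09, adjusted p = 6.1e-08). Over all tested genes 23.4% were lower in plasmablasts than in naive cells and 26.6% higher.

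Of 14 tested genes of the TRAF family and the NIK pathway, 8 rose and 3 fell from naive cells to 3 h, with a median log2 fold change of 0.96, and 8 fell and 2 rose from 3 h to 10 h, with a median of -1.13. Over all tested genes 21% rose and 24.3% fell at the first step, and 17.4% rose and 13.4% fell at the second. The receptor gene Cd40 rose from 45.4 to 184 RPKM (2.02, SE 0.08, adjusted p = 3.2e-09) and Nfkb2, the precursor of p52, from 112 to 420 (1.91, SE 0.09, adjusted p = 1.2e-08). Traf5 fell from 46.9 to 7.17 RPKM (-2.71, SE 0.11, adjusted p = 1.3e-09), in the interval in which Traf1 rose 25.2-fold, and the TACI receptor gene Tnfrsf13b fell from 184 to 70.2 (-1.38, SE 0.11, adjusted p = 5.3e-06) before it rose to 393 at 10 h. Birc3, a ubiquitin ligase that TRAF3 brings to NIK, fell from 251 to 79.9 RPKM between 3 h and 10 h (-1.65, SE 0.09, adjusted p = 2.9e-07). Map3k14, which encodes NIK, was at 23.6 and 23.9 RPKM in naive cells, 13.3 and 8.85 at 3 h, 4.70 and 4.19 in expanded cells and 0.792 and 0.913 in plasmablasts, and was lowest where Traf3 was also lowest. From expanded cells to plasmablasts Map3k14 fell (-2.38, SE 0.21, adjusted p = 4.7e-06), Cd40 fell from 28.8 to 4.72 RPKM (-2.61, SE 0.09, adjusted p = 2.1e-09) and Birc2 rose from 11.6 to 20.1 (0.79, SE 0.10, adjusted p = 0.034). In all, 1 of 14 rose and 3 fell at this step, where 13.9% of all tested genes rose and 12.2% fell.

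The ZFP36 proteins deliver their targets to the deadenylation and decapping machinery. Of 15 tested genes of the CCR4-NOT deadenylase and its partners, 2 rose and none fell from naive cells to 3 h. Over all tested genes 21% rose and 24.3% fell at this step, so the list held a smaller share of calls. Cnot7, a catalytic subunit, rose from 12.5 to 26.4 RPKM (1.08, SE 0.09, adjusted p = 5.9e-05) and Cnot4 from 6.94 to 12.1 (0.80, SE 0.11, adjusted p = 0.021). Then 5 fell from 3 h to 10 h, where 13.4% of all tested genes fell and 17.4% rose. Btg1, which binds the deadenylase and restrains proliferation, fell from 244 to 47.4 RPKM at this step (-2.36, SE 0.13, adjusted p = 1.3e-07) and was 10.9 in plasmablasts against 179 in naive cells. Of 12 tested genes of decapping and 5′ to 3′ decay 3 rose and 2 fell to 3 h, with Upf1 from 21.4 to 63.0 RPKM and the helicase gene Ddx6 from 82.5 to 203 among those that rose. These 5 of 12 stand beside 45.3% of all tested genes called at that step. Pnrc1, a decapping coactivator, fell to 3 h (-0.93, SE 0.17, adjusted p = 0.021) and rose from expanded cells to plasmablasts (1.89, SE 0.18, adjusted p = 2.3e-05).

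Other RNA decay factors moved at 3 h in both directions. Of 12 tested genes of the Regnase and roquin families, AU-rich element binders and their kinases, 7 rose and 2 fell, with a median of 1.03, where 21% of all tested genes rose and 24.3% fell. Regnase-3 (Zc3h12c) rose from 0.460 to 3.47 RPKM (2.91, SE 0.21, adjusted p = 1.6e-07) beside Zc3h12a, and roquin-1 (Rc3h1), which acts on stem-loops like those of Regnase-1, from 3.08 to 11.9 (1.95, SE 0.25, adjusted p = 0.00018). The 3 h replicates of Rc3h1 lay apart, at 15.6 and 8.25 RPKM, both above the naive 3.62 and 2.53. Regnase-4 (Zc3h12d) went the other way, from 25.6 to 6.01 RPKM (-2.08, SE 0.13, adjusted p = 1.2e-07), as did Mapk14, the p38 kinase upstream of the kinase that phosphorylates ZFP36, from 38.6 to 6.36 (-2.60, SE 0.10, adjusted p = 8.9e-10). In naive cells, then, Zc3h12d stood above Zc3h12a (25.6 against 3.66 RPKM), and at 3 h far below it (6.01 against 231).

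Of 13 tested transcripts described as ZFP36 targets 9 rose and 1 fell from naive cells to 3 h, with a median of 2.53 (1.30 with the 2 genes at no more than 3 counts in naive cells set to that bound), where 21% of all tested genes rose and 24.3% fell. Il10 was at 0 and 0.0297 RPKM in naive cells, which is at most 1 count, and at 9.48 and 11.3 at 3 h. Ccl3 rose from 0.161 to 24.3 RPKM (7.13, SE 0.46, adjusted p = 4.5e-08). Klf2, a transcription factor of quiescent lymphocytes, fell from 498 to 81.1 RPKM (-2.62, SE 0.23, adjusted p = 5e-06). From 3 h to 10 h, when Zfp36 and Zfp36l1 fell, 6 of the 13 fell and none rose. From expanded cells to plasmablasts, when Zfp36 and Zfp36l1 rose, 4 of the 13 fell and none rose, with Klf2 going from 58.3 to 1.12 RPKM (-5.70, SE 0.31, adjusted p = 1.5e-07) and Tnf from 2.5 to 0.150 (-4, SE 0.31, adjusted p = 7.5e-07). Over all tested genes 13.4% fell at the first of these steps and 12.2% at the second.

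Of 5 tested transcripts described as Regnase-1 targets 4 rose from naive cells to 3 h and none fell, where 21% of all tested genes rose. Il6 and Ctla4, among the 4, had at most 2 counts in each naive library. Their means at 3 h were 0.962 and 0.577 RPKM, so the size of these rises is uncertain. Nfkbiz, which encodes the NF-κB cofactor IκBζ, rose from 1.1 to 507 RPKM (8.83, SE 0.16, adjusted p = 1.1e-12) and came down to 89.6 at 10 h (-2.5, SE 0.11, adjusted p = 2e-08). Il6 had RPKM of 0 and 0.0357 (naive cells), 0.564 and 1.36 (3 h), 16.7 and 12.6 (10 h) and again 0 and 0.0324 (plasmablasts). Ctla4 rose from 3.56 RPKM in expanded cells to 68.8 in plasmablasts (4.28, SE 0.32, adjusted p = 2e-06), where Zc3h12a was at 22.5. The lists were chosen with earlier results in view, and their counts are descriptions beside the share of all tested genes.

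**Figure D5:**
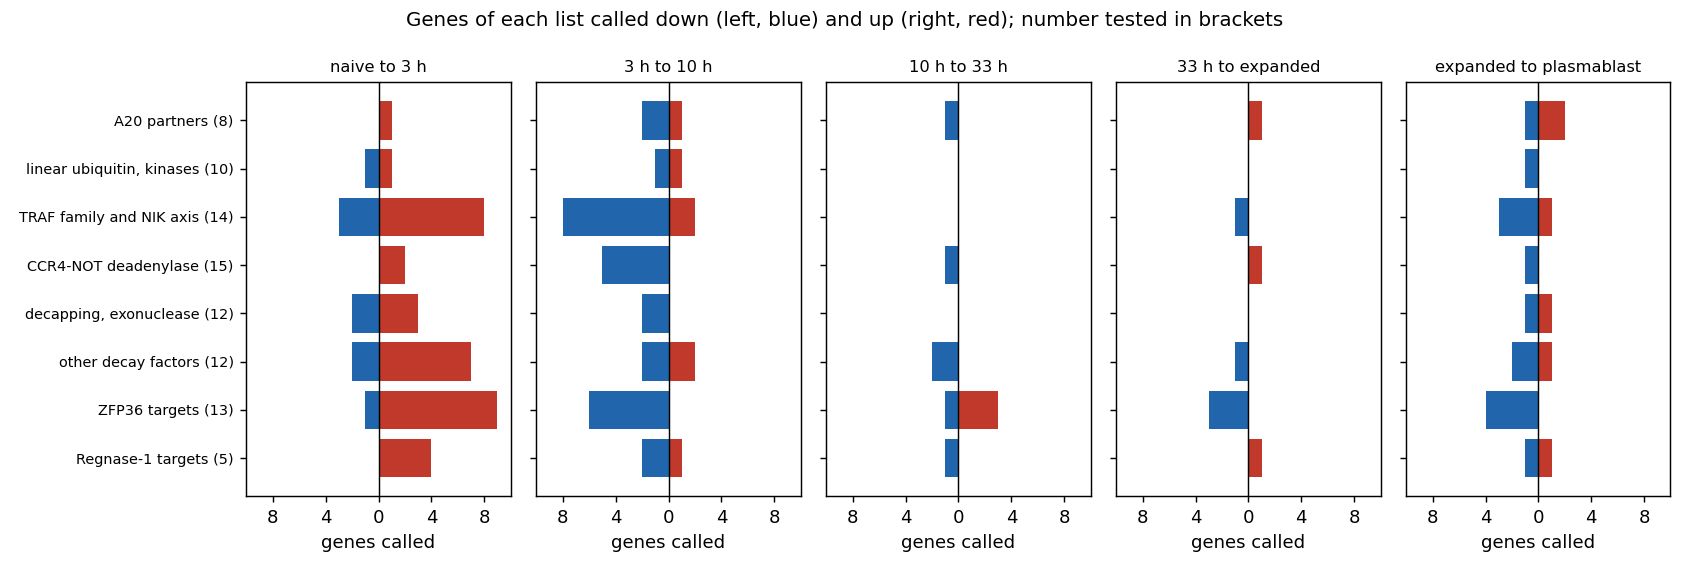
Number of genes called down (left, blue) and up (right, red) by glmTreat in each of 8 lists at the 5 transitions, with the number tested in brackets. Over the 8 lists together, calls are most frequent at naive to 3 h. They are fewest at 10 h to 33 h and 33 h to expanded. The A20 partners (1 and 3 calls) and the CCR4-NOT deadenylase (2 and 5) have fewer at naive to 3 h than at 3 h to 10 h. Of all tested genes 45.3%, 30.8%, 14.5%, 10.6% and 26.1% were called at the 5 transitions in turn. At naive to 3 h, 8 of 14 genes of the TRAF family and NIK pathway and 9 of 13 ZFP36 targets rose, against 21% of all tested genes.

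The genes whose log2(RPKM + 1) followed each member most closely over the 12 libraries were drawn from 5616 tested genes with an average abundance of at least 5 (log2 CPM). For Tnfaip3 these were Ubxn2a (Pearson's r = 0.989), the TNF receptor 2 gene Tnfrsf1b and Tent4a (both 0.987), for Zc3h12a Dnajc21 (0.997), Btaf1 and Eif1a (both 0.991), and for Traf1 Psme3 (0.994), Nop2 (0.992) and Utp4 (0.991). Zfp36l1 was followed by Rspry1 (0.987), Traf6 (0.984) and Supt5 (0.981), Traf3 by Sin3a (0.991), Kdm1b (0.985) and Cpsf7 (0.983), and Zfp36l2 by Txnip (0.976), Peg13 and Plekhm3 (both 0.973). For Cyld the closest were Itsn2 (0.986), Map3k5 (0.970) and Ctdsp2 (0.967), and for Zfp36 Tpd52 (0.974), Arhgap1 (0.972) and Sh3glb1 (0.957). Tnip1 had few followers, led by Tbc1d22b (0.921) and by Dlst and Rps6kb1 (both 0.919), with 3 genes above 0.9 where Traf1 had 399. The 12 points share stages and are 2 replicates each, so these values describe likeness only.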

How the data were processed

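TruSeq libraries (a kit that does not mark strand) were sequenced as paired ends by the authors. Alignment used Rsubread and mm10, and featureCounts gave gene counts on its inbuilt Entrez annotation; CASAVA 1.8.2 is named in the submitters' processing notes. The deposited values are raw counts per gene with no normalization, and the 12 files of single samples repeat the table of the series. The members, lists and motifs were chosen with earlier results of these data known. Symbols and coordinates came from RefSeq on GRCm38.p6. Genes with unmatched identifiers (1.41% to 2.08% of counts), mitochondrial (4.94% to 11.5%), rRNA, X and Y chromosome and antigen receptor segment genes were removed, after the study's methods, and filterByExpr kept 12750.

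R 4.3.3, edgeR 4.0.16, limma 3.58.1 and DESeq2 1.42.0 were used. Libraries were scaled with TMM and fitted as 6 stages with robust quasi-likelihood dispersions (glmQLFit, 6 residual degrees of freedom). Changes were tested with glmTreat against 1.5-fold, or with the F-test where any size was asked, and adjusted over all tested genes by the Benjamini-Hochberg method at 0.05. Beside log2 fold changes stand their SE and, where given, 95% intervals. RPKM were computed from counts, deposited exon lengths and TMM-scaled sizes, and mean RPKM are of 2 libraries. On data simulated for naive to 3 h over 12326 genes, the test found 87.5% of 200 changed genes with 0 false calls. The changed genes were drawn from those with higher counts and changed by more than 1.5-fold, and all others had the same mean at every stage. In the real data 45.3% of tested genes were called at this step, so false calls there cannot be judged from this simulation. The labels do not say whether replicate numbers mark a shared mouse or culture. Deviations of same-numbered libraries correlated over 0.1 in 1 of 15 pairs of stages, expanded cells and plasmablasts (r = 0.17), with a range of -0.23 to 0.17. With 2 libraries a stage this cannot settle whether they were paired, and the main fit held no replicate block. No 2 replicates agreed within sampling noise. Other RefSeq genes overlap Tnip1, Cyld, Traf1 and Traf3, and none has a row in the count table. Any of their reads that fall in a member's exons would be counted for that member, and the extent of this was not tested. The genes named in each list were the called genes with the largest rise and fall, 2 each at naive to 3 h and expanded to plasmablast and 1 each elsewhere, with added ones described by levels. Alternatives were other scalings, filters and tools, a replicate block, fits on 4 libraries, all genes kept, thinned counts and leaving out each library. A further list and some items are not reported here, though the total of calls in lists includes that list. List genes on the X chromosome or with too few counts were not tested.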

Additional observations from a re-analysis of the deposited data

How the results depend on the processing

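Of 756 values of the members' log2 fold changes under alternatives, 710 kept their direction and their side of the threshold, 17 lost a call, 6 gained one and 23 changed sign, none of them a called value. With libraries scaled by total alone the median of all genes shifted by -0.21 (naive to 3 h), 0.33 (3 h to 10 h), -0.34 (expanded to plasmablast) and -0.28 (naive to plasmablast), and calls up and down became 2091 and 3716, 3432 and 1004, 1181 and 2953, and 2730 and 3884, against 2674 and 3100, 2221 and 1711, 1776 and 1553, and 3386 and 2985 with TMM. Under that scaling 5 members, not 3, were called from expanded to plasmablast (Tnip1 -0.72 and Zc3h12a -0.86 added), Traf3 lost both early calls (0.62 and -0.58), and signs turned for Cyld (0.10) and Zfp36l2 (0.26) at 3 h to 10 h, Tnfaip3 (-0.03), Cyld (-0.05) and Zfp36l2 (-0.03) at expanded to plasmablast and Zfp36 (-0.22) at naive to plasmablast. With no filter 3 members, not 1, fell from 33 h to expanded (Tnfaip3 -0.81 and Zfp36l1 -0.83 added). The other reversals were near 0: from 10 h to 33 h Traf1 gave 0.03 and Traf3 0.02 with DESeq2's size factors, its Wald test, no filter or 4 libraries, and 0.01 and 0 with at least 10 counts in every library. Leaving out a library, Traf1 ran from -0.08 to 0.08 and Traf3 from -0.10 to 0.09 at that step, Zfp36l2 from -0.18 to 0.03 at 3 h to 10 h, Zfp36 from -0.62 to 0.02 at 33 h to expanded and Tnip1 from -0.05 to 0.03 at naive to plasmablast. Without plasmablast replicate 2 Tnfaip3 was called at naive to plasmablast (0.99, adjusted p = 0.024). Calls in lists were 121 and ranged from 101 to 133, and neighbouring levels separated by the F-test 21 and from 16 to 23. Mean RPKM moved by more than 1 SD in 9 of 54 cases with DESeq2's size factors and in 34 with library totals, to between 0.842 and 1.12 times the value given. The fit with the replicate block changed 1 call, Traf1 at naive to plasmablast (0.73, adjusted p = 0.052). The causes were not tested. With 2 libraries a stage, the spread is an estimate shared by all stages.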
